A study of Mus musculus with 6 samples.

Results

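Mitophagy, the removal of mitochondria by autophagosomes, depends on proteins that mark a mitochondrion and tie it to the autophagosome membrane. The 10 genes described here encode such proteins, and were taken by symbol from the 55335 mouse gene identifiers of the data set, through the GRCm38 annotation. They are Pink1, the adaptors Sqstm1, Tax1bp1, Optn and Nbr1, the receptors Bnip3, Bnip3l and Fundc1, and Map1lc3b and Ulk1. All 10 were found, and all 10 passed the filter on low values, which kept genes that reached 1 FPKM in 3 or more libraries. FPKM are fragments scaled by transcript length and by library size.

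The libraries were made from mRNA of bEnd.3, a line of mouse brain endothelial cells made immortal by the middle T antigen of polyomavirus. Libraries 1 to 3 of the mitochondria group came from wild-type cells given mitochondria of primary mouse astrocytes in 100 µl of medium. Libraries 1 to 3 of the control group came from wild-type cells given the same volume of medium alone. Cells were collected after 24 h, and the series asks how astrocytes regulate the blood-brain barrier by passing on mitochondria. The amount of mitochondria and the strain of the astrocyte donors are not given in the sources used here. Whether each library had its own culture is not in the labels, so p-values measure the spread between these libraries, which may be technical.

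Some facts of the whole set bear on every value. The low FPKM implied 21800000 to 27200000 fragments in the mitochondria libraries and 17000000 to 21100000 in the control libraries, so depth separates the groups without overlap. The part of depth in the results was not tested. Of 12 endothelial markers 7 were under 1 FPKM in every library, Cdh5, Pecam1 and Cldn5 among them, while Eng and Cd34 were expressed, so the labelled cell type lacks several of its defining transcripts. The 12 summed to 157 to 169 FPKM with mitochondria and 135 to 143 FPKM in controls, and the markers did not move one way. Cd34 rose to 80.1 ± 1.84 FPKM with mitochondria, against 60.3 ± 2.49 FPKM in controls (SD, n = 3 each, limma adjusted p = 0.0265, called in 9 of 16 other settings). Flt1 was at 7.75 FPKM with mitochondria and 10.04 FPKM in controls, and Kdr at 3.00 FPKM with mitochondria and 3.94 FPKM in controls, on the lower side without overlap (limma adjusted p 0.114 and 0.143). Of 10 astrocyte markers 7 were under 1 FPKM throughout, and Aqp4, Gjb6 and Sox9 were listed at 0. Aldh1l1, left out by the filter, had a mean of 1.06 FPKM with mitochondria and 0.391 FPKM in controls. Of those under 1 FPKM, Gfap (0.128 against 0.0771 FPKM in controls) and Slc1a2 (0.122 against 0.0476 FPKM) were higher with mitochondria. Slc1a3 (0.0522 against 0.105 FPKM) and Fgfr3 (0.301 against 0.427 FPKM) were lower. The 10 summed to 26.3 to 28.1 FPKM with mitochondria and 13.5 to 48.3 FPKM in controls. Most of this sum was Gja1, at 24.4 ± 1.21 FPKM with mitochondria and 34.5 ± 19.7 FPKM in controls (SD, n = 3 each, limma adjusted p = 0.871). Its control values were 45.7, 11.7 and 46.0 FPKM. Gja1 was called in 1 of 16 other settings, without control replicate 2 (log2 difference −0.88, limma adjusted p = 0.0319). Its log2 difference was −0.25 in the main fit and 0.06 without control replicate 1 or without control replicate 3. Of 10 fibroblast and mural markers 4 were tested, and their list summed to 157 to 166 FPKM with mitochondria and 212 to 233 FPKM in controls. Col1a1, a collagen chain, fell to 83.9 ± 3.19 FPKM with mitochondria, against 137.9 ± 2.45 FPKM in controls (SD, n = 3 each, limma adjusted p = 0.00547, called in all 16 other settings). Pdgfra was at 22.6 FPKM with mitochondria and 18.4 FPKM in controls, and Acta2 at 2.18 FPKM with mitochondria and 1.64 FPKM in controls, on the higher side without overlap (limma adjusted p 0.0702 and 0.204). The list of 7 microglia markers held 6 under 1 FPKM throughout, and Tmem119 alone was at 191 ± 14.1 FPKM with mitochondria and 241 ± 26.6 FPKM in controls (SD, n = 3 each). P2ry12 and C1qa were listed at 0, and all 7 markers of oligodendrocytes and neurons were under 1 FPKM. The part of these markers in the results was not tested. The 13 protein-coding genes of mitochondrial DNA summed to 31018, 30362 and 28177 FPKM with mitochondria, against 28172, 28770 and 27536 FPKM in controls, and the groups overlapped.

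Mitophagy runs by routes that share their last steps. In the ubiquitin route, the kinase PINK1 builds up on damaged mitochondria and phosphorylates ubiquitin, the ubiquitin coat is extended, and adaptors that bind both ubiquitin and LC3 bring the membrane. In the receptor route, proteins anchored in the outer mitochondrial membrane bind LC3 directly, and BNIP3 and its relative NIX are best known as products of hypoxia-induced genes. Much of this control acts on proteins (phosphorylation, ubiquitin, cleavage), which mRNA levels do not measure.

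None of the 10 genes changed past the threshold. By limma on log2(FPKM + 1) with Benjamini-Hochberg adjustment over 12639 tested genes, 0 of 10 had an adjusted p under 0.05, where 1.12% of all tested genes did (0.467% higher and 0.649% lower). An unadjusted p under 0.05 was reached by 4 of 10, Tax1bp1, Optn and Sqstm1 on the lower side and Map1lc3b on the higher, where 13.9% of all tested genes passed (6.58% higher and 7.32% lower). In 6 of the 10 every mitochondria library lay on the same side of every control library, which held for 21.0% of all tested genes. Of these 6, 2 were higher with mitochondria (9.62% of all tested genes) and 4 were lower (11.4% of all tested genes). The largest absolute log2 difference was 0.27, and the median log2 difference of the 10 genes was 0.01, beside −0.01 for all tested genes. The median absolute difference was 0.16 for the 10 genes and 0.08 for all tested genes. Log2 differences are mitochondria minus control and understate the fold of low genes. In bulk RNA, fewer cells of a type and less RNA per cell cannot be told apart.

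**Figure D1:**
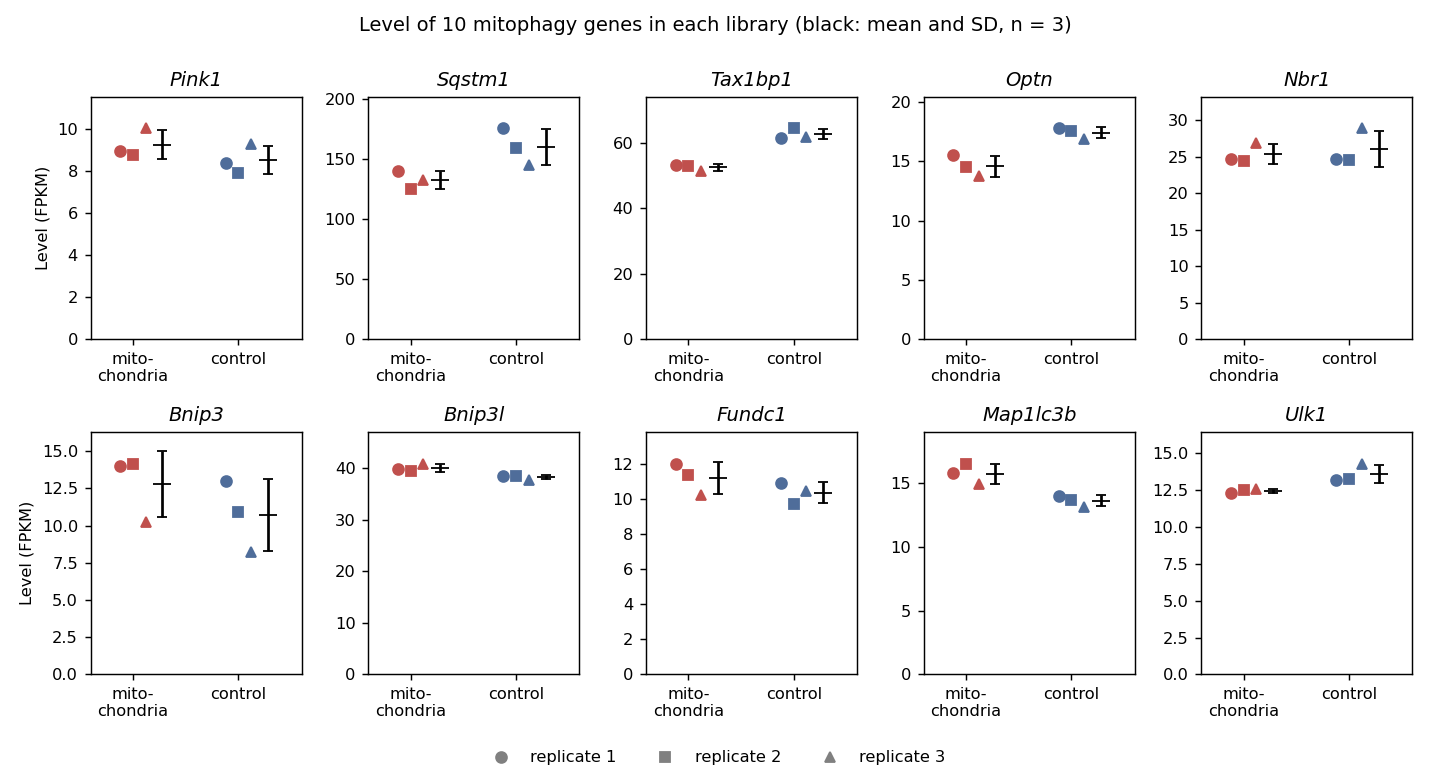
Level in FPKM of each of the 10 genes in the 3 mitochondria libraries (left of each panel) and the 3 control libraries (right), with every axis starting at 0. Marker shapes give the replicate number and black bars the mean and SD. Tax1bp1, Optn, Sqstm1 and Ulk1 sit lower in all mitochondria libraries than in any control library, and Map1lc3b and Bnip3l sit higher. Bnip3 is low in replicate 3 of both groups.

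The genes spanned a 16.5-fold range of level. Comparing genes rests on reading the values as FPKM, which are scaled by length. Sequence shared with pseudogenes, given below for Bnip3, Bnip3l and Map1lc3b, was not allowed for. Sqstm1 was highest, with a mean of 147 FPKM over the 6 libraries, above 98.3% of the tested genes. Tax1bp1 followed at 57.5 FPKM, Bnip3l at 39.1 FPKM and Nbr1 at 25.7 FPKM, and the ranges of these 4 genes over the 6 libraries did not touch each other or those below. From Optn at 16.0 FPKM through Map1lc3b at 14.7, Ulk1 at 13.0, Bnip3 at 11.8, Fundc1 at 10.8 and Pink1 at 8.88 FPKM, each gene's range overlapped that of the next. Optn, Map1lc3b and Ulk1 nevertheless lay above Fundc1 and Pink1 in every library, while the range of Bnip3 overlapped those of the other 5.

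The 250 bases before the RefSeq transcript start on GRCm38.p6 were read for 9 of the 10 genes, and Bnip3l had no entry. They are shown for the 4 genes with an unadjusted p under 0.05 and for Bnip3, the hypoxia target. Capitals mark CACGTG, the E-box core bound by MiT/TFE factors, ACGTG and GCGTG, the cores bound by HIF, and TGACNNNGC, the core of the NRF2 element. All were searched on both strands, and CACGTG contains ACGTG on either strand.
Tax1bp1, chr6:52713479-52713728, plus strand: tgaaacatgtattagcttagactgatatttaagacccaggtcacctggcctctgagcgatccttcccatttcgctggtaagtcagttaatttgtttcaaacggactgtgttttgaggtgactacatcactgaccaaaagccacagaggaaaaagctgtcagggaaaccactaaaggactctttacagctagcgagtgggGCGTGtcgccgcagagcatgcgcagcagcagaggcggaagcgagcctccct
Optn, chr2:5064118-5064367, minus strand: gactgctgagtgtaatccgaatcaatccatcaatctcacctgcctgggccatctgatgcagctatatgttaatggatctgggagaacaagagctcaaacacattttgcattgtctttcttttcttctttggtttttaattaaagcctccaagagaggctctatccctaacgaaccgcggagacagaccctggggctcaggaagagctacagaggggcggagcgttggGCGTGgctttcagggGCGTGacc
Sqstm1, chr11:50210821-50211070, minus strand: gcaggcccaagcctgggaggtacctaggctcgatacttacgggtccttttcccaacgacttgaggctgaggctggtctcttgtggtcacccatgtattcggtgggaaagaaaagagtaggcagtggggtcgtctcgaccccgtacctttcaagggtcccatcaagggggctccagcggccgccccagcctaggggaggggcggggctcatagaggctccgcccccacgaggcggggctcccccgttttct
Map1lc3b, chr8:121590188-121590437, plus strand: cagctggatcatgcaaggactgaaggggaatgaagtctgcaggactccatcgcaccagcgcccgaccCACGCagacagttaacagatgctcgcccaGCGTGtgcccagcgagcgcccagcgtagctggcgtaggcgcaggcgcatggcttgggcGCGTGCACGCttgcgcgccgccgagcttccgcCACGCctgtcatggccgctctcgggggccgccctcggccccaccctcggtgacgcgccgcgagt
Bnip3, chr7:138909507-138909756, minus strand: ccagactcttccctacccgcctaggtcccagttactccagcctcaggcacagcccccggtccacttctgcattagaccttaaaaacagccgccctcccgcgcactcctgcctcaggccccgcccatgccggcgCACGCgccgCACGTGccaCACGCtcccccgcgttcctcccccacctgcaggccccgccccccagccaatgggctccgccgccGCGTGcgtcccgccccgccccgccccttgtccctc
Bnip3 held all but the NRF2 core: CACGTG lay 108 bases before its start, and GCGTG occurred 3 times on either strand. Of all 32851 RefSeq windows of the same length 6.0% held CACGTG, 16.6% ACGTG, 28.2% GCGTG and 10.2% TGACNNNGC. The Sqstm1 window held none of these letters, Optn held GCGTG 2 times and Map1lc3b 5 times. Tax1bp1 held GCGTG once in the window shown, and its other RefSeq window held TGACNNNGC once, ACGTG once and GCGTG 2 times. A match describes the sequence and not binding.

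The ubiquitin route starts with Pink1 (ENSMUSG00000028756, chr4:138313409-138326307, minus strand), the kinase that senses mitochondria with a failing membrane potential. Its level was 8.95, 8.74 and 10.025 FPKM in mitochondria libraries 1 to 3, against 8.39, 7.91 and 9.25 FPKM in control libraries 1 to 3. The groups overlapped, and replicate 3 was the highest library of both. The means were 9.24 ± 0.688 FPKM with mitochondria and 8.52 ± 0.682 FPKM in controls (SD, n = 3 each), a log2 difference of 0.11 (SE 0.08, 95% interval −0.08 to 0.29, limma adjusted p = 0.615). It ran from 0.05 without mitochondria replicate 3 to 0.16 without control replicate 3.

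The adaptors held the largest of the lower values. Tax1bp1 (ENSMUSG00000004535, chr6:52713729-52766780, plus strand) encodes an adaptor that binds ubiquitin and ATG8 proteins and also restrains inflammatory signalling. It was at 53.2, 52.8 and 51.3 FPKM with mitochondria, against 61.6, 64.4 and 61.9 FPKM in controls. The groups were apart by 8.36 FPKM, several times the SD within either group. The means were 52.4 ± 1.01 FPKM with mitochondria and 62.6 ± 1.56 FPKM in controls (SD, n = 3 each), 16.3% lower on the FPKM scale. Its log2 difference of −0.25 (SE 0.05, 95% interval −0.36 to −0.14) had the smallest p of the 10 genes, rank 202 of 12639, and missed the threshold with a limma adjusted p of 0.0665. Without 1 library in turn its log2 difference stayed between −0.26 and −0.23 and its adjusted p between 0.0860 and 0.250.

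Optn (ENSMUSG00000026672, chr2:5020642-5064051, minus strand) encodes optineurin, a main adaptor of ubiquitin-dependent mitophagy in human cells and a substrate of the kinase TBK1. It was at 15.5, 14.5 and 13.8 FPKM with mitochondria, against 17.8, 17.6 and 16.9 FPKM in controls. Every mitochondria library lay below every control library, with 1.40 FPKM between the nearest. Means were 14.6 ± 0.878 FPKM with mitochondria and 17.4 ± 0.461 FPKM in controls (SD, n = 3 each), for a log2 difference of −0.24 (SE 0.06, 95% interval −0.39 to −0.10, limma adjusted p = 0.137).

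Sqstm1 (ENSMUSG00000015837, chr11:50199366-50210827, minus strand) encodes p62, an adaptor that gathers ubiquitinated cargo and also binds KEAP1, the inhibitor of the transcription factor NRF2. Its values were 140.0, 125 and 133 FPKM with mitochondria, against 176, 159 and 146 FPKM in controls. The groups did not overlap, but control replicate 3 came within 5.72 FPKM of mitochondria replicate 1, and control values ran down to 146 FPKM and up to 176 FPKM. Means were 133 ± 7.31 FPKM with mitochondria and 160.4 ± 15.2 FPKM in controls (SD, n = 3 each), and the log2 difference was −0.27 (SE 0.08, 95% interval −0.46 to −0.07, limma adjusted p = 0.215). Exons of Sqstm1 share 580 bases with Mrnip on the other strand. Mrnip was at 4.48 ± 0.165 FPKM with mitochondria and 3.90 ± 0.354 FPKM in controls (SD, n = 3 each).

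Nbr1 (ENSMUSG00000017119, chr11:101552149-101581951, plus strand), an adaptor related to p62 and best known for peroxisome and aggregate clearance, was the member with the closest means. It was at 24.7, 24.4 and 26.9 FPKM with mitochondria, against 24.7, 24.6 and 28.9 FPKM in controls. Replicate 3 was high in both groups and the groups overlapped. The log2 difference was −0.04 (SE 0.08, limma adjusted p = 0.887), and its 95% interval ran from −0.22 to 0.15. The 4 adaptors summed to 233, 217 and 225 FPKM with mitochondria, against 280.0, 266 and 253 FPKM in controls. That is a ratio of means of 0.845, with Sqstm1 as the bulk of the sum.

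**Figure D2:**
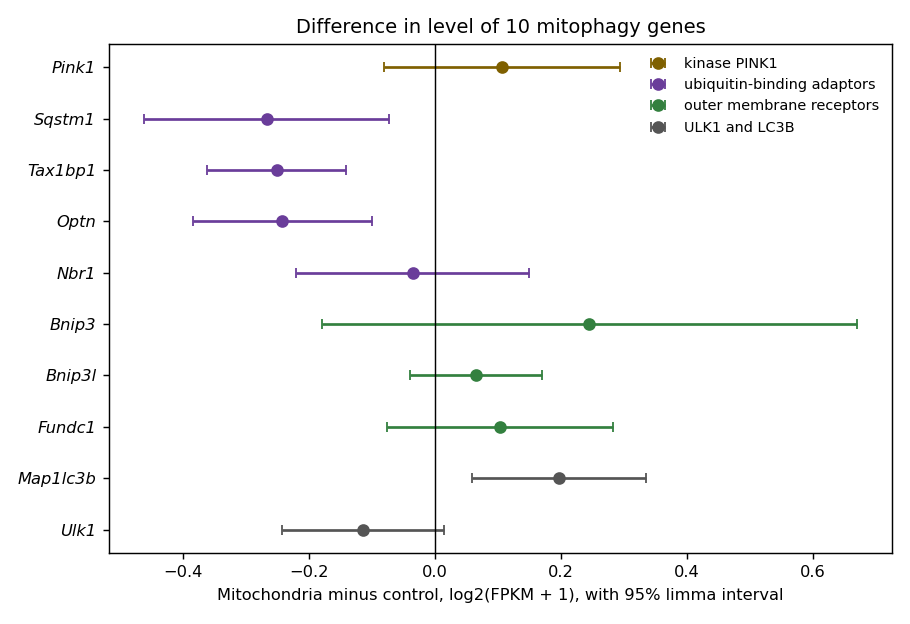
Difference between mitochondria and control libraries in log2(FPKM + 1) for each of the 10 genes, with the 95% interval from limma over 3 libraries in each group, coloured by role. The intervals of Sqstm1, Tax1bp1 and Optn lie below 0 and that of Map1lc3b above 0, before adjustment for the 12639 genes tested. The other 6 intervals include 0, and that of Bnip3 is the widest, from −0.18 to 0.67.

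The membrane-anchored receptors gave no difference past the threshold. Bnip3 (ENSMUSG00000078566, chr7:138890836-138909519, minus strand) encodes a receptor of the outer mitochondrial membrane and is a textbook target of the hypoxia factor HIF-1. It was at 14.0, 14.2 and 10.3 FPKM with mitochondria, against 13.0, 10.9 and 8.22 FPKM in controls. The groups overlapped, and replicate 3 was the lowest library of both. Its coefficient of variation was 17.2% with mitochondria and 22.5% in controls, higher than for any other of the 10 genes. The log2 difference of 0.24 had an SE of 0.18 and a 95% interval of −0.18 to 0.67 (limma adjusted p = 0.607), the widest of the 10. It ran from 0.08 without control replicate 3 to 0.39 without mitochondria replicate 3, and was also over 1.5 times as large without control replicate 1, at 0.38. Words of 31 bases shared with other genes made up 20.3% of those in Bnip3, mostly with the pseudogenes Gm16439 and Gm6532. Gm16439 was listed at 0 in every library, and Gm6532 was at 1.05 ± 0.0915 FPKM with mitochondria and 0.745 ± 0.148 FPKM in controls (SD, n = 3 each).

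Bnip3l (ENSMUSG00000022051, chr14:66985239-67008877, minus strand) encodes NIX, the relative of BNIP3 that clears mitochondria from maturing red cells. It was at 39.8, 39.4 and 40.9 FPKM with mitochondria, against 38.5, 38.4 and 37.8 FPKM in controls. The groups did not overlap, but they were only 0.912 FPKM apart and the means differed by 4.72%. The log2 difference of 0.06 (SE 0.04, limma adjusted p = 0.578) had a 95% interval of −0.04 to 0.17, the narrowest of the 10. Of the words of Bnip3l 23.7% also lie in the pseudogene Bnip3l-ps, which was at 7.56 ± 0.565 FPKM with mitochondria and 7.08 ± 0.375 FPKM in controls (SD, n = 3 each, limma adjusted p = 0.678). Bnip3l exceeded Bnip3 2.84-, 2.78- and 3.98-fold in mitochondria libraries 1 to 3 and 2.95-, 3.52- and 4.60-fold in control libraries 1 to 3.

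Fundc1 (ENSMUSG00000025040, chrX:17556564-17572325, minus strand) encodes a receptor whose binding to LC3 is set by phosphorylation and is known from hypoxic cells. It was at 12.03, 11.4 and 10.2 FPKM with mitochondria, against 10.9, 9.73 and 10.5 FPKM in controls, and the groups overlapped. The log2 difference was 0.10 (SE 0.08, 95% interval −0.08 to 0.28, limma adjusted p = 0.613), and it ran from 0.06 without mitochondria replicate 1 to 0.16 without mitochondria replicate 3. The 3 receptors summed to 65.9, 65.0 and 61.4 FPKM with mitochondria, against 62.4, 59.1 and 56.5 FPKM in controls, a ratio of means of 1.08.

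The autophagosome side was read from LC3B and ULK1. Map1lc3b (ENSMUSG00000031812, chr8:121590361-121598760, plus strand) encodes LC3B, the ubiquitin-like protein that is fixed to the autophagosome membrane and bound by the adaptors and receptors. It was at 15.7, 16.5 and 14.9 FPKM with mitochondria, against 14.0, 13.7 and 13.1 FPKM in controls. Every mitochondria library lay above every control library, with 0.970 FPKM between the nearest. Means were 15.7 ± 0.783 FPKM with mitochondria and 13.6 ± 0.433 FPKM in controls (SD, n = 3 each), and the log2 difference was 0.20 (SE 0.06, 95% interval 0.06 to 0.33, limma adjusted p = 0.202).

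The value of Map1lc3b is uncertain because the mouse genome holds near copies of its coding part. Of its words 7.8% occur in other genes, and the pseudogene Gm6055 on chromosome 14, of 378 bases, was listed at a higher level than Map1lc3b itself. Gm6055 was at 22.2, 25.8 and 24.0 FPKM with mitochondria, against 23.7, 19.3 and 19.3 FPKM in controls (limma adjusted p = 0.409). Fragments from shared words can be assigned to either gene, and the sources used here do not say how the authors split them. The last 58 exonic bases of Map1lc3b also overlap Zcchc14 on the other strand, which was at 23.2 ± 0.465 FPKM with mitochondria and 21.7 ± 1.18 FPKM in controls (SD, n = 3 each).

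Ulk1 (ENSMUSG00000029512, chr5:110784488-110810097, minus strand) encodes the kinase that starts autophagosome formation and also phosphorylates FUNDC1. It was at 12.3, 12.5 and 12.6 FPKM with mitochondria, against 13.2, 13.3 and 14.3 FPKM in controls. The groups did not overlap, with 0.646 FPKM between the nearest libraries. Means were 12.5 ± 0.137 FPKM with mitochondria and 13.6 ± 0.607 FPKM in controls (SD, n = 3 each), and the log2 difference was −0.11 (SE 0.05, 95% interval −0.24 to 0.01, limma adjusted p = 0.410).

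The mRNA of LC3B relative to that of p62, taken within each library, lay apart in the groups. It had to, because Map1lc3b was higher and Sqstm1 lower without overlap. The ratio adds nothing to these values, and neither gene passed the threshold. The level of Map1lc3b was 0.112, 0.132 and 0.112 of that of Sqstm1 in mitochondria libraries 1 to 3, against 0.079, 0.086 and 0.090 in control libraries 1 to 3. The means were 0.119 ± 0.0111 with mitochondria and 0.0851 ± 0.00536 in controls (SD, n = 3 each), given as a description with no test because the pair was chosen after its values were seen. Sqstm1, Tax1bp1 and Optn were lower by 17.2%, 16.3% and 16.3% on the FPKM scale, so the mean ratios among them had to stay close. Sqstm1 over Tax1bp1 was 2.53 ± 0.139 with mitochondria and 2.56 ± 0.263 in controls, and Sqstm1 over Optn was 9.11 ± 0.510 with mitochondria and 9.18 ± 0.645 in controls (SD, n = 3 each). Both of these means differed by less than the SD of either group. Sqstm1 over Nbr1 was 5.24 ± 0.373 with mitochondria and 6.22 ± 1.07 in controls (SD, n = 3 each), and the groups overlapped.

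**Figure D3:**
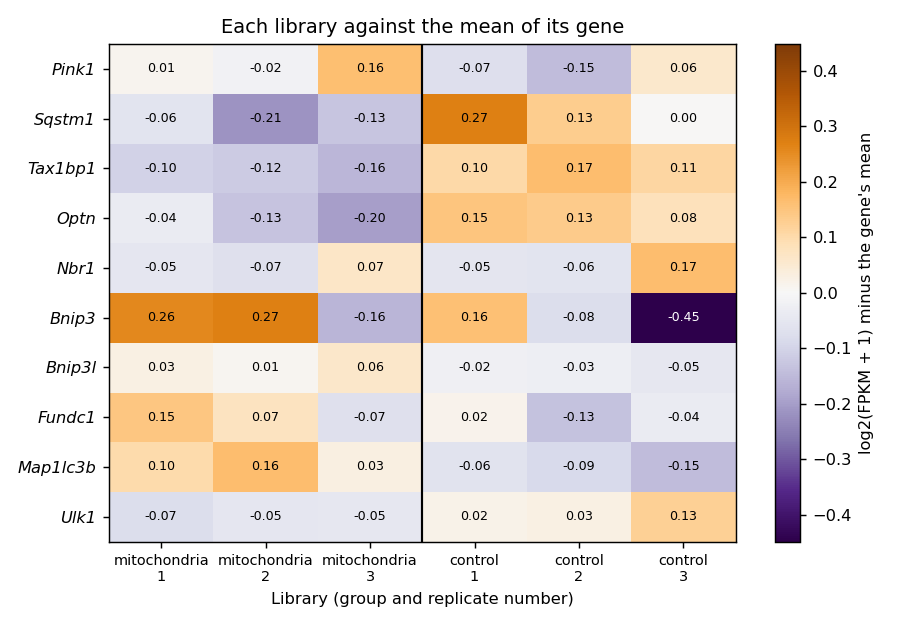
Value of each library minus the mean of its gene over the 6 libraries, on the log2(FPKM + 1) scale, with mitochondria libraries 1 to 3 left of the line and control libraries 1 to 3 right of it. Sqstm1, Tax1bp1, Optn and Ulk1 are below 0 in every mitochondria library. Bnip3 spans −0.45 (control replicate 3) to 0.27 (mitochondria replicate 2), and Pink1 and Nbr1 are highest in replicate 3 of each group.

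Of the other genes of the pathway, 10 lists with 140 genes, 134 of them tested, were read in the same fit. Of the 134, 1 gene passed the threshold (0.746%, beside 1.12% of all tested genes), and 20 had an unadjusted p under 0.05 (14.9%, beside 13.9% of all tested genes). In the 6 lists of the mitophagy and autophagy machinery, 0 genes passed the threshold. The list of PINK1 pathway partners (22 genes, all tested) also had 0 genes at an unadjusted p under 0.05 and a median log2 difference of 0.00. Its smallest p was that of Parl, the inner membrane protease that cleaves PINK1, at 7.87 ± 0.316 FPKM with mitochondria and 9.01 ± 0.778 FPKM in controls (SD, n = 3 each, limma adjusted p = 0.362). Among 14 tested genes of other receptors and their regulators 3 had an unadjusted p under 0.05, with Nipsnap1, a mitochondrial matrix protein exposed on damaged mitochondria, at 14.0 ± 0.868 FPKM with mitochondria and 11.7 ± 0.613 FPKM in controls (SD, n = 3 each, limma adjusted p = 0.177). Calcoco2, which encodes the adaptor NDP52, was at 0.0845 FPKM or less in every library.

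The machinery that builds and fuses autophagosomes had 0 genes past the threshold. The ULK1 complex (4 of 4 tested) had 0 genes at an unadjusted p under 0.05, and its smallest p was that of Atg13, at 13.1 ± 0.347 FPKM with mitochondria and 12.7 ± 0.732 FPKM in controls (SD, n = 3 each, limma adjusted p = 0.820). The ATG8 family and its conjugation enzymes (15 of 15 tested) had 2 genes at an unadjusted p under 0.05. Atg5, part of the conjugation complex, was at 10.9 ± 0.310 FPKM with mitochondria and 13.0 ± 0.838 FPKM in controls (SD, n = 3 each, limma adjusted p = 0.159). Nucleation and membrane supply (17 of 17 tested) had 1 such gene, Nrbf2, a subunit of the class III phosphoinositide kinase complex (limma adjusted p = 0.283). Fusion with the lysosome (14 of 14 tested) had 2, led by Rilp, an effector of the GTPase RAB7, at 1.86 ± 0.126 FPKM with mitochondria and 1.26 ± 0.222 FPKM in controls (SD, n = 3 each, limma adjusted p = 0.177).

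Regulators of the 10, and other targets of HIF-1 and NRF2, were read as 4 further lists. Of 12 tested transcriptional regulators 0 passed and 3 had an unadjusted p under 0.05, and the closest was Mitf, a factor of the MiT/TFE family that drives lysosome and autophagy genes. It was at 2.71 ± 0.0861 FPKM with mitochondria and 3.81 ± 0.175 FPKM in controls (SD, n = 3 each), a log2 difference of −0.37 (SE 0.06, limma adjusted p = 0.0559). Mitf passed the threshold in 2 other settings, with an adjusted p of 0.0498 under quantile normalization and 0.0441 with plain empirical Bayes. In the same family Tfeb was at 4.68 FPKM with mitochondria and 4.01 FPKM in controls (limma adjusted p = 0.454). Tfe3 was at 7.10 FPKM with mitochondria and 7.63 FPKM in controls (limma adjusted p = 0.651). Also at an unadjusted p under 0.05, Hif1a was at 56.5 FPKM with mitochondria and 66.0 FPKM in controls (limma adjusted p = 0.190). Epas1 was at 13.2 FPKM with mitochondria and 11.2 FPKM in controls (limma adjusted p = 0.317). The AMPK and mTORC1 list (14 of 15 tested), which acts on ULK1, had 0 genes past the threshold and 1 at an unadjusted p under 0.05. That gene was Deptor, an inhibitor of mTOR, at 2.10 ± 0.140 FPKM with mitochondria and 3.07 ± 0.457 FPKM in controls (SD, n = 3 each, limma adjusted p = 0.138). Of the 14 log2 differences 1 was above 0, but several lay close to 0 (Mtor −0.0015, Prkaa1 −0.0011 and Tsc1 −0.0089). The share above 0 over all tested genes was not counted. The list median was −0.04, beside −0.01 for all tested genes.

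HIF-1 targets, the class to which Bnip3 belongs, held values on both sides. Of 13 tested 0 passed, 3 had an unadjusted p under 0.05 on the higher side and 2 on the lower. Ldha, lactate dehydrogenase A, was at 119.8 ± 4.92 FPKM with mitochondria and 98.1 ± 7.95 FPKM in controls (SD, n = 3 each, limma adjusted p = 0.136), and passed in 1 other setting, quantile normalization (adjusted p = 0.0470). The NRF2 targets, the class to which Sqstm1 belongs, had the 1 gene of the 10 lists past the threshold, 1 of 9 tested. Gclc, the catalytic subunit of the enzyme that begins glutathione synthesis, fell to 20.6 ± 0.256 FPKM with mitochondria, against 25.5 ± 0.763 FPKM in controls (SD, n = 3 each, log2 difference −0.30, SE 0.05, limma adjusted p = 0.0461). The call was lost in each of the 6 fits that left out a library, with no filter, in the 4 other scalings, with plain empirical Bayes and with the replicate block. The median log2 difference of the 9 genes was −0.18, beside −0.01 for all tested genes.

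**Figure D4:**
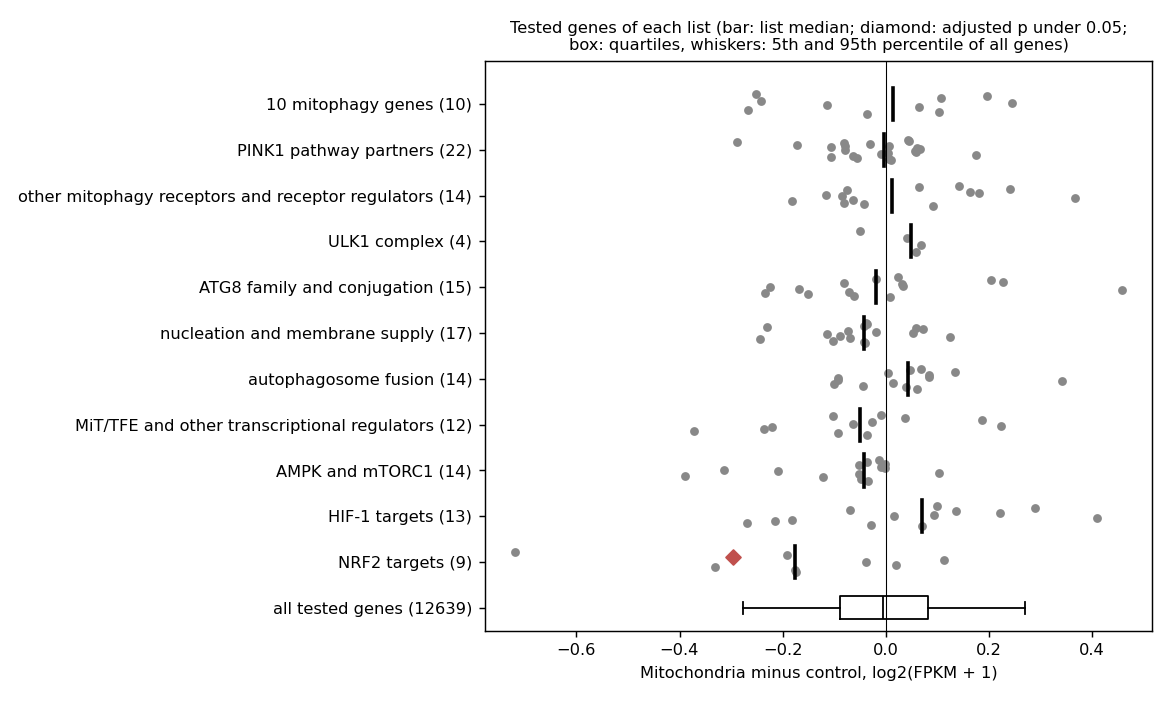
Difference between mitochondria and control libraries in log2(FPKM + 1) of every tested gene of the 10 mitophagy genes and of the 10 further lists, with the number tested in brackets. Bars are list medians, the diamond is Gclc, and the box at the bottom shows all 12639 tested genes. List medians run from −0.18 (NRF2 targets) to 0.07 (HIF-1 targets).

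Genes with the most similar profile were sought by the root mean square difference of log2(FPKM + 1) values over the 6 libraries, each centred on its own mean. For Tax1bp1 the nearest 3 protein-coding genes were Fam185a (0.02), Arhgap18 (0.03) and Plekhg5 (0.03). Arhgap18 was at 9.94, 9.78 and 9.40 FPKM with mitochondria, against 11.3, 12.3 and 12.1 FPKM in controls. For Sqstm1, the member with the highest level, they were Setmar (0.03), Fbxo9 (0.04) and Maff (0.04). Maff was at 8.11, 7.30 and 7.18 FPKM with mitochondria, against 10.2, 9.55 and 8.53 FPKM in controls. The search used 6 libraries and ran over the tested protein-coding genes, leaving out those with predicted names only. None of the 6 genes passed the threshold (limma adjusted p 0.0950 to 0.285).

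**Figure D5:**
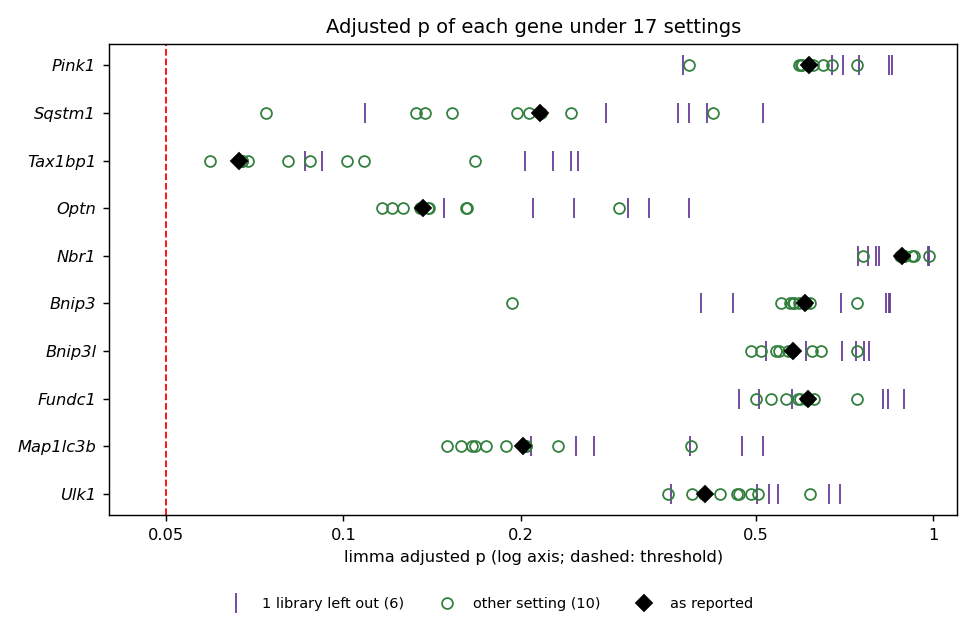
Adjusted p from limma for each of the 10 genes as reported (diamond), in 10 other settings (circles) and in 6 fits that leave out 1 library (ticks), on a log axis with the threshold of 0.05 dashed. No gene crosses the threshold in any of these fits. Tax1bp1 comes nearest, at 0.0593 when genes with a mean under 5 FPKM are left out.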

How the data were processed

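RNA was isolated on columns and made into stranded mRNA libraries, per the labels' protocols. The authors deposited 1 value per gene and library, read here as FPKM because the values are not whole and each library sums to between 281433 and 297838. The tools named, per the submitters' processing notes, are StringTie 1.3.1c, STAR 2.5.3a and FastQC 0.11.5, with the build GRCm38 (mm10). Their roles, the annotation release and the use of strand are not given in the sources used here. Identifiers were matched to GENCODE M21 (55154 of 55335). Depth was estimated from the worth of 1 fragment in single-transcript genes. Only 29.8% to 31.5% of low values lay within 0.02 of a whole fragment, so no count model was used. Genes that reached 1 FPKM in 3 or more libraries entered a fit of log2(FPKM + 1) on group alone (limma 3.58.1, R 4.3.3), with trend and robust options and Benjamini-Hochberg adjustment. The code was tested on simulated data. Shared 31-base words and overlaps came from GENCODE M21 transcripts.

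The 10 members and the lists were chosen with earlier results of these data known. The rule for names took all members, the called genes of each list (or the gene with the smallest p), and the 3 most similar genes for Tax1bp1 and Sqstm1. Genes and ratios beyond it were chosen after their values were seen. The alternatives are 2 pseudocounts (0.1 and 0.01), 2 filters, 4 scalings, plain empirical Bayes, the replicate block and omission of each library.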

Additional observations from a re-analysis of the deposited data

How the results depend on the processing

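In all 16 other settings 0 of the 10 genes passed the threshold, so the count of members called was 0 in each. Adjusted p-values of Tax1bp1 ran from 0.0593 to 0.250, of Optn from 0.116 to 0.385, of Sqstm1 from 0.0740 to 0.514 and of Map1lc3b from 0.150 to 0.514. Directions held in every setting for 9 genes, and Nbr1 ran from −0.077 to 0.038 when a library was left out, reversed only without control replicate 3 (the cause was not tested). The count of calls over all genes was 141 as reported and 13 with no filter, where 29365 genes were tested. It was 14 to 88 when a library was left out, where fewer samples enter the fit. The pathway lists had 1 call as reported (Gclc), 0 with no filter, median-of-ratios scaling, TPM, omission of mitochondrial DNA genes or the replicate block, 0 in each fit without a library, and 2 with quantile normalization, Mitf and Ldha in place of Gclc (the cause was not tested). With plain empirical Bayes the 1 call was Mitf in place of Gclc. Whether the numbers pair the samples is not settled. Deviations of same-numbered libraries had correlations of 0.10, 0.05 and 0.30 across genes, and 1 of the 3, replicate 3, was best with its own number in both groups. Replicate 3 of either group had correlations of −0.20 to −0.13 with replicates 1 and 2 of the other. Replicates 1 and 2 had correlations of 0.05 to 0.12 across the groups. The deviations of a group sum to 0 for each gene, so these correlations constrain each other and are not separate observations. Whether replicate 3 of both groups shared a batch was not tested. With the replicate block 56 genes were called in all, 0 of them members, and the adjusted p of Bnip3 was 0.194 in place of 0.607. The summed levels by role moved by less than their spread under TPM and median-of-ratios scaling. The files hold no counts, so no counting interval could be given for any gene.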
